A study of Mus musculus with 10 samples.

Results

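A set of 9 genes of cell-cell junctions were examined in mouse liver: the claudins Cldn1, Cldn2 and Cldn3, occludin (Ocln), and the junction plaque genes Tjp1 and Cgn from the tight junction, E-cadherin (Cdh1) from the adherens junction, and the connexins Gjb1 and Gjb2 from the gap junction. They were chosen by gene symbol, and all 13 probes that the platform annotation gives to these 9 genes were taken from an array of 45281 probes with 19057 gene symbols. The samples were liver RNA of FVB mice, an inbred strain, with 1 Illumina bead array per mouse. In 6 mice wild-type LKB1 was overexpressed from a plasmid injected into the tail vein each week for 8 weeks. The other 4 mice were untreated. No vector-injected group is among these samples, so effects of LKB1 itself, of the vector and of repeated injection cannot be told apart. The sources used here give no age, sex or feeding state for the mice and no promoter for the plasmid. The sample labels speak of both hepatocytes and liver. All 8 hepatocyte markers checked, Alb and Hnf4a among them, were measured, but 7 of 8 liver endothelium markers and 5 of 6 annotated Kupffer cell markers were measured as well.

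Tight junctions seal the space between hepatocytes and separate bile in the canaliculus from blood. Claudins form the strands that set which ions and solutes pass, occludin is a further membrane protein of these strands, and the cytoplasmic proteins encoded by Tjp1 and Cgn link the strands to actin. E-cadherin holds neighbouring cells together at the adherens junction through calcium-dependent binding, and connexins form channels through which hepatocytes exchange ions and small molecules. LKB1, encoded by Stk11, is the mammalian counterpart of a polarity kinase first described in worms, and its target AMPK is known to promote the assembly of tight junctions in epithelial cells. The series asks which transcripts of the liver differ when LKB1 is added.

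The arrays detected between 15374 and 16839 probes each, at a detection p-value under 0.05, and correlated with each other at r = 0.983 to 0.994 over the 16803 probes kept for the test, those detected on at least 4 arrays. With 10 arrays in all, their number sets how small a difference can be seen. Stk11 itself was detected in every mouse, and its log2 intensity was 9.60 ± 0.12 (SD, n = 4) without and 9.66 ± 0.08 (SD, n = 6) with the plasmid, a difference smaller than the spread between mice. The sources used here do not say whether its probe can bind a transcript of the plasmid. Clustering on probes at background, cut at 2 sets, gave A (untreated 1 and 2, LKB1 1, 2 and 4) and B (untreated 3 and 4, LKB1 5, 6 and 7). Such a cut returns 2 sets from any data. The mean Spearman correlation was 0.52 within sets and 0.48 between them, a small gap. Of the 16803 kept probes, 116 were called between the sets. What the sets stand for is not given in the labels, and values within them are printed beside the pooled ones.

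Of the measured junction members, 0 of 8 differed between the groups at an adjusted p under 0.05 (limma). The background was 0% of the 9725 genes tested, with a smallest adjusted p of 0.166. Of the 9 genes, 8 had a kept probe, and Cgn had none. At an unadjusted p under 0.05 there were 3 of the 8 members, Cldn1 and Cldn2 with higher and Ocln with lower values in LKB1 livers, against 6.30% of all genes (3.21% higher and 3.10% lower). Counted by probe, 3 of the 11 kept junction probes were under that limit, against 6.66% of all kept probes. With no threshold, 6 of the 8 members were higher in LKB1 livers, against 49.2% of all genes. These 6 include Cldn3, at 0.03, and Tjp1, which was near background. Tjp1 was detected on 1 untreated and 3 LKB1 arrays, the 4 that the filter needs. It was thus counted through the group in which it was higher. The exact permutation test over all 210 splits of the mice put 2 of the 8 members, Cldn1 and Ocln, under 0.05, against 6.14% of all genes. These 9 genes were selected with earlier results of the same arrays known, so the share of 3 in 8 is not independent evidence. It was 1 of 8 without untreated replicate 2, a setting in which the share of all genes was 3.83%. In that setting Cldn1 was at 0.24 ± 0.13 and Cldn2 at 0.18 ± 0.11 (SE). The exact count was 0 without untreated replicate 2 or 3 or LKB1 replicate 5 or 6, and 1 without untreated replicate 1 or LKB1 replicate 1 or 7. Leaving out 1 mouse at a time, the share of all genes under an exact p of 0.05 ran from 4.23% to 7.18%. In 0 of the 8 members did the groups separate without overlap, against 1.32% of all genes. In bulk liver RNA, fewer cells of a type and less RNA per cell cannot be told apart.

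**Figure D1:**
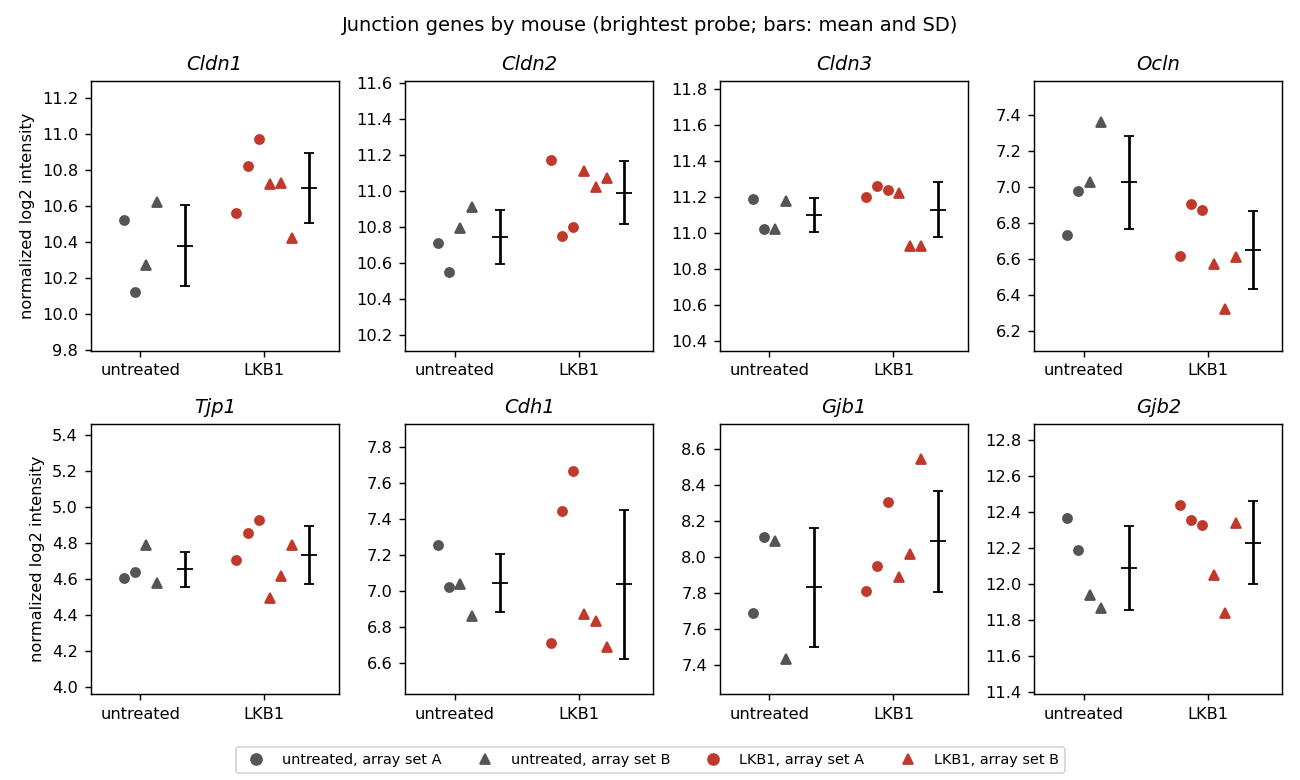
Normalized log2 intensity of the brightest kept probe of 8 junction genes in each mouse; grey points are the 4 untreated and red points the 6 LKB1 livers, circles are array set A and triangles set B, black bars are mean and SD, and every panel spans the same range of log2 units. Cldn1 and Cldn2 lie higher and Ocln lower in most LKB1 livers, and in all 8 genes the groups overlap.

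The proximal promoters of the 3 members with the smallest p are shown for context, as the bases directly upstream of the outermost annotated start. The sequences are from RefSeq (GRCm38.p6), read 5′ to 3′ on the strand of the gene, and capitals mark the GC box GGGCGG and the TATA box TATAAA on either strand. Cldn1 lies on chromosome 16 (chr16:26371840-26372089, minus strand), Cldn2 on the X chromosome (chrX:139800558-139800807, plus strand) and Ocln on chromosome 13 (chr13:100552719-100552968, minus strand).
Cldn1: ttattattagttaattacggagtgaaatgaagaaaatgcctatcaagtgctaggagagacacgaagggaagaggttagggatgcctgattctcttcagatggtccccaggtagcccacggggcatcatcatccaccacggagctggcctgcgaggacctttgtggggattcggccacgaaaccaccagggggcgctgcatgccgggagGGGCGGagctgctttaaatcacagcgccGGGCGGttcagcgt
Cldn2: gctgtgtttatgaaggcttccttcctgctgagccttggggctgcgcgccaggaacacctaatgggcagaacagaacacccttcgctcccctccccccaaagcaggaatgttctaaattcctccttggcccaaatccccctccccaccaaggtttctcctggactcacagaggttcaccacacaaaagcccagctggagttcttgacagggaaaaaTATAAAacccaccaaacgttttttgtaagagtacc
Ocln: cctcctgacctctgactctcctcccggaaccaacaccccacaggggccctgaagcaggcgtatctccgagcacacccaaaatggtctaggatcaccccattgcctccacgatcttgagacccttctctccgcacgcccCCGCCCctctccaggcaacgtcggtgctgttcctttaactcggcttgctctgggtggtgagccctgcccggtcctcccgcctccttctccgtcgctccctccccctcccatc
In these 250 bases Cldn1 held 2 GC boxes and Ocln held 1, with 0 TATA boxes in either, while Cldn2 held 1 TATA box, which begins 35 bases before the start, and 0 GC boxes. Over the 250 bases upstream of all 32851 annotated starts in the table, 32.7% held GGGCGG and 12.4% held TATAAA. The E-box CANNTG (N is any base), none of whose matches here overlaps a GC or TATA box, occurred 2 times in Cldn1, 1 time in Cldn2 and 0 times in Ocln, against at least 1 in 66.2% of all starts. Such matches are descriptions of the letters and were not tied to the arrays by any test.

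Claudin 1, a sealing claudin found on hepatocytes and bile duct cells, had the largest positive difference of the 8 measured members. Its probe gave log2 intensities of 10.52, 10.12, 10.27 and 10.62 in untreated replicates 1 to 4. The LKB1 livers ran from 10.42 through a median of 10.72 to 10.97. The untreated mean was exceeded in 6 of 6 LKB1 livers and the highest untreated mouse in 4 of them, with LKB1 replicates 1 and 7 inside the untreated range. The difference was 0.32 ± 0.12 (SE) on the log2 scale, a fold of 1.25 with a 95% confidence interval from 1.04 to 1.51. It did not pass (adjusted p = 0.678, limma; exact permutation p = 0.0476, two-sided, unadjusted). Within set A the difference was 0.46 and within set B 0.18. Leaving out 1 mouse at a time, it ran from 0.24 (without untreated replicate 2, the lowest mouse) to 0.40 (without untreated replicate 4). With array medians made equal it was 0.10; that scaling moves the median gene to -0.157, and relative to it Cldn1 stood at 0.26.

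Claudin 2 forms channels for cations and water and is a claudin of hepatocytes. Its brighter probe gave 10.71, 10.55, 10.79 and 10.91 in untreated replicates 1 to 4 and ran from 10.75 through a median of 11.04 to 11.17 in LKB1 livers. Again 6 of 6 LKB1 livers lay above the untreated mean and 4 of 6 above every untreated mouse, but the 2 that did not, replicates 2 and 4, were other mice than for Cldn1. The difference was 0.25 ± 0.11 (SE), a fold of 1.19 with an interval from 1.01 to 1.39 (adjusted p = 0.724, limma; exact permutation p = 0.0524). Set A gave 0.28 and set B 0.22, and the value was 0.03 with array medians made equal, or 0.18 above the median gene of that scale. Leaving out 1 mouse at a time, this probe ran from 0.18 (without untreated replicate 2, its lowest mouse) to 0.30 (without untreated replicate 4). The other probe of Cldn2 had the same difference, 0.25 ± 0.18 (SE), with a wider spread between mice. It ran from 10.36 to 10.96 in untreated and from 10.43 to 11.30 in LKB1 livers, and 4 of 6 LKB1 livers lay above the untreated mean. This probe also differed between the array sets, by 0.53 (set B minus set A over all mice), against 0.18 on the brighter probe. Without a block its unadjusted p was 0.196 (limma). With the array set as a block its standard error was 0.10 and its unadjusted p 0.0274 (adjusted p = 0.519, limma). In that setting 8.21% of all genes had an unadjusted p under 0.05, against 6.30% in the main fit. The sets were themselves derived from these arrays.

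Claudin 3, a sealing claudin of hepatocytes and bile ducts, did not separate the groups in either direction. It gave 11.19, 11.02, 11.02 and 11.18 in untreated replicates 1 to 4. In LKB1 livers it ran from 10.93 through a median of 11.21 to 11.26, with 4 livers above and 2 livers, replicates 6 and 7, below every untreated mouse. The difference was 0.03 ± 0.09 (SE) (adjusted p = 0.969, limma), with a 95% confidence interval of the fold from 0.886 to 1.17. The sign depended on the setting, with 0.13 in set A, -0.07 in set B and -0.19 with array medians made equal, which is -0.04 relative to the median gene.

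Occludin had the largest difference in size of the 8 members and was the only one of the 3 with an unadjusted p under 0.05 whose values were lower in LKB1 livers. Untreated replicates 1 to 4 had log2 intensities of 6.73, 6.98, 7.03 and 7.36. The LKB1 livers ran from 6.32 through a median of 6.61 to 6.91. All 6 LKB1 livers lay below the untreated mean, 4 of them below every untreated mouse, and the groups met only at untreated replicate 1, which lay below LKB1 replicates 2 and 4. The difference was -0.38 ± 0.14 (SE), or 1.30-fold lower, with an interval of the log2 difference from -0.67 to -0.08 (adjusted p = 0.645, limma; exact permutation p = 0.0429). A difference of at least this size in either direction was found in 2.5% of all genes. With array medians made equal it was -0.52, which is -0.36 relative to the median gene, so the direction was the same under that scaling.

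The difference of Ocln was uneven between the array sets. Set A gave -0.06 and set B gave -0.69, and in the latter all 3 LKB1 livers, between 6.32 and 6.61, lay below both untreated livers, at 7.03 and 7.36. The test of that unevenness gave an unadjusted p of 0.0134 and an adjusted p of 0.999 (limma, interaction of group and set, added after seeing the data, 0 of 16803 probes called and 3.81% with an unadjusted p under 0.05), so a difference between sets was not established. With the set as a block the difference was -0.38 ± 0.14 (SE; adjusted p = 0.501, limma). Without untreated replicate 4, the mouse with the highest Ocln, the difference was -0.26.

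**Figure D2:**
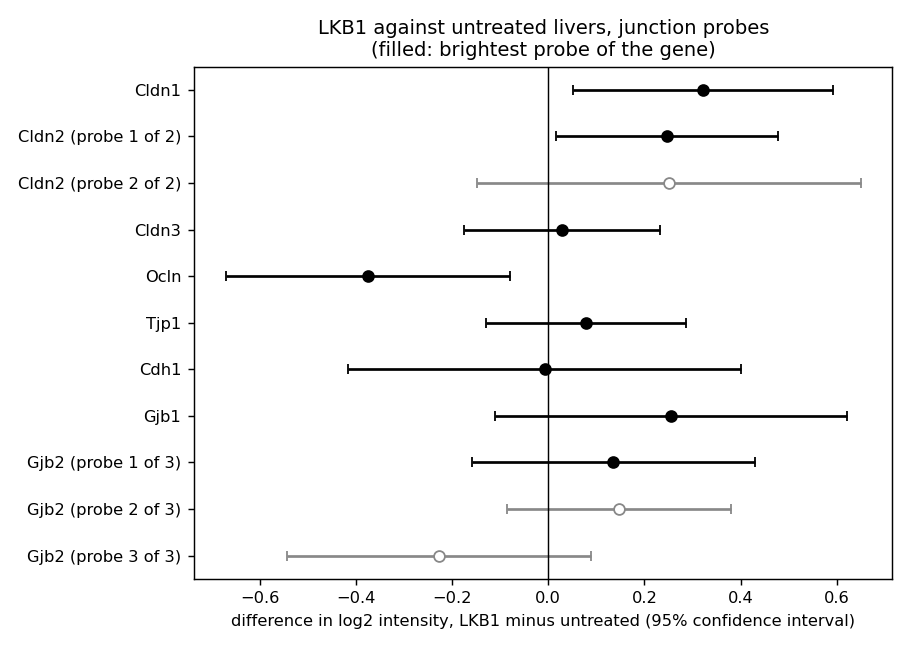
Difference in normalized log2 intensity, LKB1 minus untreated, for each of the 11 kept junction probes, as estimate and 95% confidence interval; filled points are the brightest probe of a gene and open points its other probes. Only the intervals of Cldn1, the brighter Cldn2 probe and Ocln leave out 0, none of them after adjustment, and the estimates run from -0.38 (Ocln) to 0.32 (Cldn1).

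Both members from the tight junction plaque, Tjp1 and Cgn, were at or near background. Tjp1, which encodes a PDZ scaffold that binds claudins and occludin, was above the detection limit in 1 of 4 untreated mice and 3 of 6 LKB1 mice. Its values ran from 4.58 to 4.79 in untreated and from 4.49 to 4.93 in LKB1 livers, where the probes detected on no array had a median of 4.34 on each array to within rounding. The difference was 0.08 ± 0.10 (SE; adjusted p = 0.920, limma), and at this signal a change in Tjp1 mRNA was not readily detectable. The single probe of Cgn, which encodes cingulin, was detected on 0 of 10 arrays, with deposited intensities between 17.2 and 29.4, and is not well above background in either group. No difference is given for it.

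E-cadherin, which is found mainly on periportal hepatocytes and on bile duct cells in mouse liver, was the most variable member among LKB1 livers. Its detected probe gave 7.25, 7.02, 7.04 and 6.86 in untreated replicates 1 to 4. LKB1 replicates 4 and 2 had 7.67 and 7.45, above every untreated mouse, while the 4 others lay between 6.69 and 6.87. The SD was 0.41 in LKB1 and 0.16 in untreated livers, and the means, 7.04 in each group, differed by -0.01 ± 0.19 (SE; adjusted p = 0.998, limma). The interval of the fold, from 0.749 to 1.32, is wide, so a change of moderate size in either direction was not detectable here. A second Cdh1 probe was detected on 0 of 10 arrays. Without LKB1 replicate 4 the difference of the detected probe was -0.13, and within the array sets it was 0.14 (A) and -0.15 (B).

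The main connexin of mouse hepatocytes, Gjb1, was higher on average in LKB1 livers by less than the spread between mice allowed to call. It gave 7.69, 8.11, 8.09 and 7.43 in untreated replicates 1 to 4 and ran from 7.81 through a median of 7.98 to 8.54 in LKB1 livers. The untreated mice themselves spanned 7.43 to 8.11, and 2 of 6 LKB1 livers lay above that range. The difference was 0.26 ± 0.17 (SE; adjusted p = 0.837, limma; exact permutation p = 0.238), with an interval of the fold from 0.927 to 1.54. It was 0.12 without untreated replicate 4, the mouse with the lowest Gjb1, and 0.12 and 0.39 within sets A and B. With array medians made equal it was 0.071, or 0.23 relative to the median gene.

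The second connexin of hepatocytes, Gjb2, lies mainly in periportal cells in rodents and was measured by 3 probes that did not run together. The brightest gave 12.37, 12.19, 11.94 and 11.87 in untreated replicates 1 to 4 and from 11.84 through a median of 12.34 to 12.44 in LKB1 livers, a difference of 0.14 ± 0.14 (SE; adjusted p = 0.901, limma). It was 0.061 without untreated replicate 4 and 0.23 without untreated replicate 1. The next gave a difference of 0.15 ± 0.11 (SE; adjusted p = 0.855, limma), with values from 9.05 to 9.23 in untreated and from 8.99 to 9.59 in LKB1 livers. The dimmest of the 3 went the other way, at -0.23 ± 0.15 (SE; adjusted p = 0.830, limma), with 5 of 6 LKB1 livers below the untreated mean. The probes disagreed most on LKB1 replicate 5, which was the highest mouse on the second probe, at 9.59, and the lowest on the third, at 8.21. All 3 probes are annotated to the same RefSeq transcript, and the sources used here do not say which stretch of it each one covers.

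**Figure D3:**
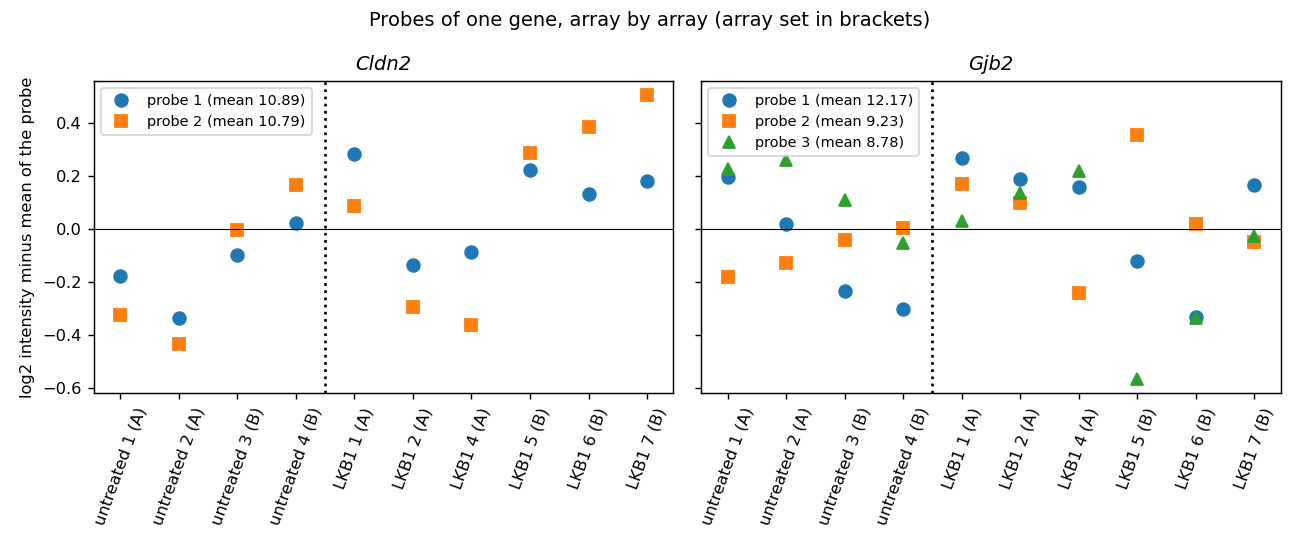
Log2 intensity of each kept probe of Cldn2 (2 probes) and Gjb2 (3 probes) on each array, minus the mean of that probe over the 10 arrays; letters in brackets are the array sets and the dotted line separates untreated from LKB1. The Cldn2 probes lie on the same side of 0 on nearly every array, with a wider range for probe 2, whereas the Gjb2 probes lie on opposite sides on several arrays, with LKB1 replicate 5 at 9.59 on probe 2 and 8.21 on probe 3.

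Some junction probes differed between the array sets more than between the groups. Over all mice, set B minus set A was -0.36 for Cdh1, -0.33 and -0.35 for the brightest and the dimmest Gjb2 probe, and 0.53 for the second Cldn2 probe. For the brightest probe of Cldn1, Ocln and Gjb1 it was -0.05, -0.04 and 0.02. With the set as a block the dimmest Gjb2 probe had an unadjusted p of 0.0553 (adjusted p = 0.583, limma), and 0 junction probes passed. Each set held 2 untreated and 3 LKB1 mice, so the sets do not coincide with the groups.

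**Figure D4:**
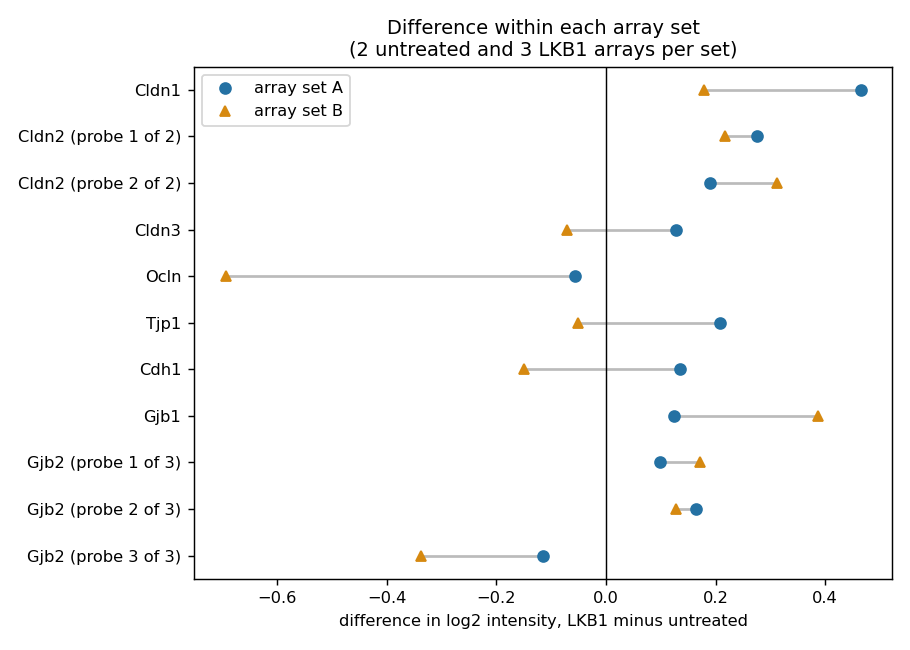
Difference in mean normalized log2 intensity, LKB1 minus untreated, of each kept junction probe within array set A (circles) and set B (triangles), each with 2 untreated and 3 LKB1 arrays. Cldn1, both Cldn2 probes and Gjb1 are above 0 in each set and Ocln is below 0 in each, at -0.06 in set A and -0.69 in set B, while Cldn3, Tjp1 and Cdh1 are above 0 in set A and below 0 in set B.

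Other genes of the junctions were examined in 6 lists: claudins, other membrane proteins of the tight junction, its plaque and polarity proteins, the adherens junction, connexins and pannexins, and the desmosome. Beside the members, 50 genes of these lists were measured, 19 with higher and 31 with lower values in LKB1 livers, at a median log2 difference of -0.03 against -0.0025 for all genes. Of these 50, 0 passed the adjusted p (limma) and 3 had an unadjusted p under 0.05, which is 6% against 6.30% of all genes. The 3 were Cdh2, Tjp3 and Gja5. The 8 members had a median of 0.11, with 6 higher, among them Tjp1 near background, and 2 lower. By list, higher values were found in 4 of 9 other tight junction membrane genes, 5 of 16 plaque and polarity genes, 5 of 11 adherens junction genes, 1 of 3 connexin genes and 1 of 4 desmosome genes. Cldn10 among the 19 higher genes and Pkp3 among the 31 lower ones passed the filter through the group in which each was higher.

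Among the wider genes the smallest p was that of Cdh2, the N-cadherin that hepatocytes carry beside E-cadherin. It ran from 5.26 to 5.65 in untreated livers and from 5.004 to 5.27 in LKB1 livers, so that the groups overlapped only at untreated replicate 4 and LKB1 replicate 7. The difference was -0.33 ± 0.10 (SE; adjusted p = 0.517, limma), and -0.45 and -0.21 within sets A and B. The other adherens junction gene named by rank, the actin cross-linker Actn4, differed by 0.26 ± 0.12 (SE), by 0.27 and 0.19 when read on its other probes, and by 0.13 without untreated replicate 3. Its values ran from 8.22 to 8.93 in untreated and from 8.77 to 9.02 in LKB1 livers.

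In the tight junction plaque Tjp3, a scaffold related to Tjp1, ran from 6.28 to 7.32 in untreated and from 7.06 to 7.68 in LKB1 livers. Its difference was 0.42 ± 0.19 (SE; adjusted p = 0.731, limma), with 0.24 on its other probe and 0.22 without untreated replicate 2. Cgnl1, a relative of cingulin, was well above background, at 9.22 ± 0.19 (SD, n = 4) in untreated and 8.98 ± 0.18 (SD, n = 6) in LKB1 livers. Its brighter probe differed by -0.24 and its other probe by 0.15, in opposite directions. Mpp5, a polarity scaffold gene named after its values were seen, differed by -0.23. It was dim and detected on 3 of 4 untreated arrays. Among further membrane proteins Ildr1, of the angulin family at contacts of 3 cells, was at -0.21 ± 0.12 (SE), or -0.11 without untreated replicate 3. The polarity protein gene Crb3 was at -0.17 ± 0.12 (SE), or -0.10 without untreated replicate 2. Crb3 was near background, detected on 3 of 4 untreated and 4 of 6 LKB1 arrays.

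Of the claudins other than the members, 3 of 7 were higher, with a median difference of -0.0027. Among the higher ones Cldn10, at 0.04, was dim and detected on 2 of 4 untreated and 6 of 6 LKB1 arrays. It thus passed the filter through the group in which it was higher. The 2 of smallest p were Cldn14, at 0.18 ± 0.14 (SE), and Cldn5, the claudin of endothelial cells, at -0.13 ± 0.16 (SE). Cldn14 was at 0.096 without LKB1 replicate 5, and Cldn5 ran from -0.29 without untreated replicate 4 to 0.00 without untreated replicate 3. Of the connexins, Gja5, known from arterial endothelium, ran from 5.63 to 6.29 in untreated and from 5.39 to 5.93 in LKB1 livers. Its difference was -0.31 ± 0.14 (SE; adjusted p = 0.731, limma), with -0.27 and -0.06 on its other probes and -0.20 without untreated replicate 3. Gja4, also endothelial, was at -0.09 ± 0.14 (SE), and at 0.01 without untreated replicate 3. In the desmosome, the plakophilin genes Pkp3 and Pkp2 were at -0.23 ± 0.13 and -0.11 ± 0.13 (SE). Pkp3 was dim, from 4.83 to 5.29 in untreated and from 4.62 to 5.23 in LKB1 livers. It was detected on 4 of 4 untreated but 3 of 6 LKB1 arrays, so it passed the filter through the group in which it was higher. Leaving out 1 mouse at a time, Pkp2 ran from -0.17 (without LKB1 replicate 5) to -0.055 (without LKB1 replicate 7). The other Pkp2 probes gave 0.03 and 0.08, and Pkp3 was at -0.56 in set A and 0.10 in set B.

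**Figure D5:**
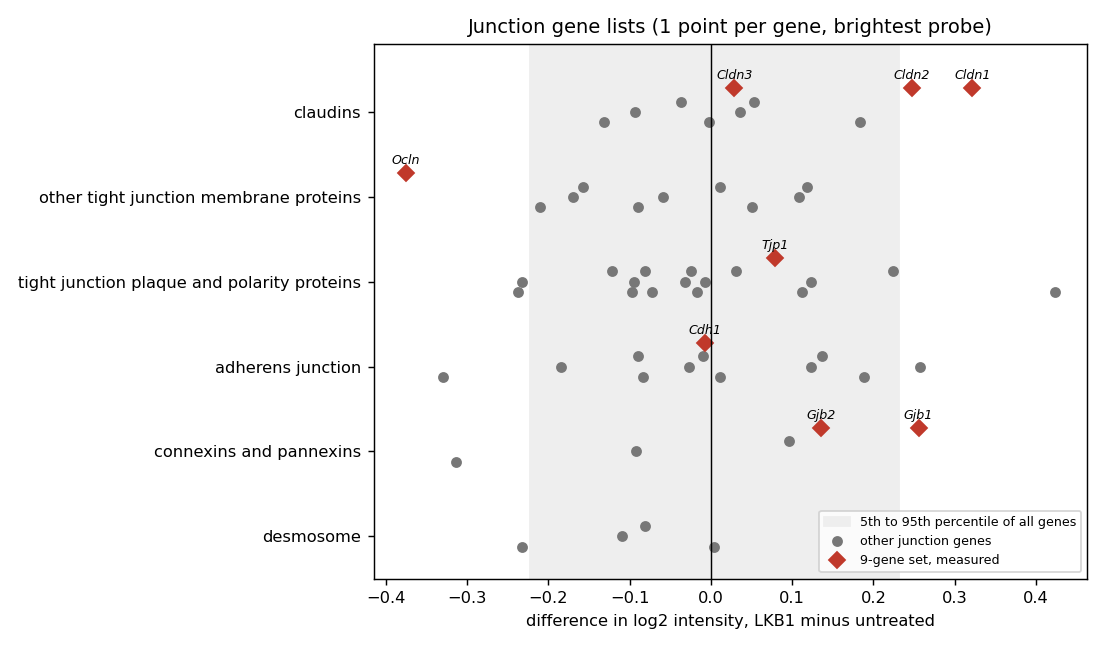
Difference in normalized log2 intensity, LKB1 minus untreated, of every measured gene of 6 junction lists at its brightest probe; grey points are 50 other junction genes, red diamonds the 8 measured members, and the shaded band runs from the 5th to the 95th percentile of all genes (-0.22 to 0.23). Cldn1, Cldn2, Gjb1 and Ocln lie outside the band, as do, among the other genes, Tjp3 and Actn4 above it and Cdh2, Gja5, Cgnl1, Mpp5 and Pkp3 below it. Mpp5 and Pkp3 are dim and were not detected on every array.

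Markers of other cells in the liver stood as follows beside these junction genes. Of the 6 annotated bile duct markers 3 were measured, 1 higher and 2 lower, with a median difference of -0.26. The lowest, the keratin gene Krt23, was at -0.76 ± 0.24 (SE; unadjusted p = 0.00709, adjusted p = 0.573, limma), a larger difference than that of any junction member. The median was that of Krt7, a dim probe detected on 3 of 6 LKB1 arrays. Sox9, the brightest of the 3, went the other way, at 0.12, with 0.35 on its other probe. The summed level of the 3 markers ran from 618.3 to 732.8 in untreated and from 435 to 992.7 in LKB1 livers. Krt19, Epcam and Cftr were detected on no array. The 7 measured endothelial markers had a median difference of 0.02 (5 higher, 2 lower), with sums from 5354 to 7525 in untreated and from 6444 to 7721 in LKB1 livers. The 5 measured Kupffer cell markers were all higher, against 49.2% of all genes, with a median of 0.24. One of them (C1qa, at 0.37) had an unadjusted p under 0.05 (limma), against 6.30% of all genes. The median was the value of the brighter Clec4f probe, and the other Clec4f probe gave 0.11. Adgre1 was at 0.31, with 0.09 on its other probe. Marco, at 0.06, was near background and detected on 3 of 4 untreated and 4 of 6 LKB1 arrays. Untreated replicate 4 was the lowest of all mice for Clec4f, Vsig4, Adgre1 and C1qa, though not for Marco. The same mouse was the lowest for the endothelial markers Pecam1, Cdh5, Stab2, Clec4g and Tek, though not for Kdr or Emcn. C1qa was at 6.31 in that mouse and from 6.97 to 7.04 in the other untreated mice. Values without that mouse are not given for these markers. The sums of the Kupffer cell markers ran from 1465 to 2668 in untreated and from 2015 to 2900 in LKB1 livers. Pericentral hepatocyte markers had a median of -0.11 (2 of 8 higher) and periportal ones of -0.05 (2 of 5 higher). Of the periportal markers 2, Pck1 at -0.51 and Aldh1b1 at -0.31, had an unadjusted p under 0.05, as had 0 of the 8 pericentral ones. The sums of both lists overlapped between the groups. All sums given here add unlogged values, so the brightest markers of a list, such as Cyp2e1 or Cyp2f2 here, weigh most. Stellate cell markers had a median of 0.02 (5 of 7 higher) and red cell markers of -0.14 (0 of 3 higher). The 1 measured neutrophil marker was at -0.0065. T and B cell markers had a median of 0.20 (2 of 3 higher), which was the value of Cd3g. Cd3g was near background and detected on 1 of 4 untreated and 5 of 6 LKB1 arrays. It was therefore kept through the group in which it was higher, and its difference is no evidence of a change. None of the markers passed the adjusted p (limma, 0 called). Their part in the junction values was not tested.

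The transcripts whose pattern over the 10 mice was most like each member were ranked by Pearson correlation. Of the 9725 genes, those with only a clone or predicted name were left out of the ranking. The values describe the top of the remaining genes, and a gene left out may have correlated more closely. For Cldn1 these were Eps8l2 (r = 0.944, Spearman rho = 0.939) and Lrg1 (r = 0.925), and for Cldn2 Mitd1 (r = 0.941) and Arhgef26 (r = 0.938). For Ocln they were Rapgef2 (r = 0.931, rho = 0.952) and Cblc (r = 0.914), and for Cldn3 Hsd3b2 (r = 0.941) and Mup6 (r = 0.907). Cdh1 was followed most closely by Atoh8 (r = 0.944) and Tmem167b (r = 0.933), and Tjp1, near background, by Naa15 (r = 0.906) and Trappc6b (r = 0.892). Gjb1 had the lowest leading values, with Nudt10 (r = 0.888) and Jpt1 (r = 0.880), and the brightest Gjb2 probe went with Irf3 (r = 0.923) and Crp (r = 0.903). Both genes of a pair were read on the same arrays, and none of these 16 genes passed the adjusted p between the groups.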

How the data were processed

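Liver RNA of 4 untreated and 6 LKB1 mice was measured on bead arrays; 1 array was taken as 1 mouse, since the series text counts mice. Per the file headers, the deposited table holds each probe's non-normalized intensity with its detection p-value. Background subtraction by the scanner is not stated. The authors' processed values, read as log2 from their range, were an alternative. The submitters' processing notes name lumi. Intensities were corrected by normexp from the detection p-values (offset 16), quantile-normalized and put on a log2 scale (neqc, limma 3.58.1, R 4.3.3). The offset understates changes of dim probes. Probes detected (p under 0.05) on at least 4 arrays were fitted with lmFit and eBayes, with Benjamini-Hochberg adjustment over 16803 probes. Symbols came from GEO's platform annotation, and all 13 member probes matched RefSeq gene numbers. The brightest kept probe stood for a gene; intensities of different probes are not compared. Array sets came from clustering 24495 probes detected on no array, with the tree cut at 2 sets. The fit was tested on simulated data, in which the planted changes were larger than any member difference of the main fit. That test therefore does not show how often changes of the size reported here would be found. Named genes are all members, the 2 non-members of smallest p per junction list, and the 2 genes most correlated with each member. Genes with only a clone or predicted name were left out of that correlation ranking. The members and lists were chosen with earlier results of these data known. Of the list names, 14 (some of them older synonyms) were not in the annotation and are not analysed here. Unmapped per-sample columns: 0.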

Additional observations from a re-analysis of the deposited data

How the results depend on the processing

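Over 178 alternative values of the 8 members, 165 kept the direction of the value reported and 0 passed an adjusted p of 0.05 (limma). Part of the 165 could not change direction. Other filters on dim probes and the array set as a block returned the same difference, such as -0.38 for Ocln. The mean over probes did so for genes with 1 kept probe. The share that kept its direction therefore overstates how stable the values are. None of the 58 measured junction genes was called under any alternative run. With array medians made equal, 15 probes of the array passed, none of a listed junction gene; 1 member had an unadjusted p under 0.05 (5.40% of all genes) and 1 an exact p under 0.05 (4.24%), and Cldn3 and Gjb2 turned to -0.19 and -0.10. With an offset of 50 Cdh1 was at 0.00076. The count of members at an unadjusted p under 0.05 was 1 within set A, 1 within set B and 1 with a replicate block, where the shares of all genes were 6.19%, 5.08% and 5.92%. In that block Cdh1 was at 0.23 and Ocln at -0.22. Whether the numbers that both groups share pair the mice was not settled. Deviations of same-numbered mice correlated at 0.15, 0.24 and -0.17 (replicates 1, 2 and 4), and values for mice of different numbers are not given. Within set A Cdh1 was at 0.14, and within set B Cldn3 was at -0.070 and Tjp1 at -0.052. One other Gjb2 probe gave -0.23. Leaving out 1 mouse at a time, Cdh1 ran from -0.13 to 0.063, called probes from 0 to 1 (without LKB1 replicate 2), members at an unadjusted p under 0.05 from 1 to 3, and members at an exact p under 0.05 from 0 to 2. By the exact test Cldn2 missed an unadjusted 0.05, at 0.0524. The causes were not tested. The signals of Tjp1, Cgn and the second Cdh1 probe were at or near background.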

Other observations

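The highest value of the 8 measured junction genes fell on LKB1 replicate 4 in 3 genes, on LKB1 replicate 1 in 2, and on LKB1 replicates 2 and 7 and untreated replicate 4 in 1 each. The lowest values fell on untreated replicate 2 in 2 genes, on LKB1 replicates 6 and 7 in 2 each, and on untreated replicate 4 and LKB1 replicate 5 in 1 each. LKB1 replicate 4 is in array set A, and LKB1 replicates 5, 6 and 7 are in set B. In none of the 22 comparisons of a kept member probe within a group was a single mouse far enough from the rest to pass the 95% critical value for an outlier (0 of 22).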
